A study of Mus musculus with 47 samples.

Results

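The comparison described here is between irradiated JB6 cells carrying the AnxA2 shRNA at 24 h and the same cells at 6 h after X-ray exposure. Its 12 arrays, of 47 in the series, are all those labelled with the AnxA2 shRNA, a radiation dose of 10 or 100 cGy and a time of 24 or 6 h: 6 arrays at 24 h (3 per dose) and 6 at 6 h (3 per dose). JB6 is an established line from mouse epidermis, known from studies of tumour promotion, and the labels call the cells JB6 progenitor cells. They were kept below confluence in medium with fetal bovine serum, transduced with a retrovirus, selected with puromycin, and exposed to X-rays in normal growth medium. All cells of the comparison therefore carry the AnxA2 shRNA and an integrated, selected retrovirus, and the shRNA cells and the cells with the Ps vector are a single line each as far as the labels tell. Values are also given for 11 arrays of irradiated Ps vector cells at 24 and 6 h, for 6 arrays of untreated (sham-exposed) shRNA cells at 24 and 2 h, and for 6 arrays of irradiated shRNA cells at 2 h. Untreated cells at 6 h are not among the samples used here, so time after irradiation and time in culture cannot be told apart. The labels number the replicates without saying that they were separate cultures, so the p values measure the spread between these arrays, which may be technical.

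Anxa2 encodes annexin A2, a calcium-dependent protein that binds membranes and actin and that forms a complex with S100a10. Ionizing radiation is known to stabilise p53, which induces Cdkn1a, an inhibitor of cyclin-dependent kinases, and Mdm2, the ubiquitin ligase that limits p53. Serum and growth factors acting through the EGF receptor and ERK induce a short-lived wave of immediate early transcription factors, followed by feedback inhibitors such as Errfi1, Dusp6 and the Sprouty proteins. Cells that leave this state are known to lower ribosome production and to raise lysosomal genes.

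Anxa2 itself had log2 signals of 10.67 (lowest), 10.71 (median) and 10.78 (highest) on the 6 arrays at 24 h, against 11.05, 11.09 and 11.21 on the 6 arrays at 6 h. It was lower at 24 h by a log2 difference of -0.39 ± 0.05 (SE; adjusted p = 4.25e-05), without overlap. A second, dimmer probe set of Anxa2 differed by -0.05. In irradiated vector cells it lay between 12.34 and 12.44 at 24 h and between 12.46 and 12.62 at 6 h, so every shRNA array was below every vector array at both times. The position of the probe set relative to the shRNA target is not known here.

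Of 8675 tested genes, 1777 were higher at 24 h than at 6 h and 1663 were lower, at an adjusted p under 0.05 with dose as a covariate. That is 20.5% and 19.2% of the tested genes, or 39.7% together, and all counts of called genes given for groups of genes below stand against these shares. The changes were mostly small: the median size among called genes was 0.356 on the log2 scale, and 71 higher and 58 lower genes (0.818% and 0.669%) changed at least 2-fold. The first principal component held 55.8% of the variance and set the times apart, with scores of 13.46 to 16.82 at 24 h and -20.95 to -13.07 at 6 h. The second, with 14.7%, set apart 1 array, replicate 1 of 10 cGy at 6 h (score 21.39). On that array the Gapdh probe set for the 3′ end exceeded the one for the 5′ end by a log2 difference of 1.062, against -0.06 to 0.163 on the other 11 arrays. Without it, 1936 genes were higher and 1720 lower at 24 h.

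The largest gain at 24 h was that of Dbp, a clock-controlled transcription factor of the PAR bZIP family. Its log2 signal was 7.54, 7.58 and 7.74 (lowest, median, highest of 6 arrays) at 24 h, against 5.13, 5.28 and 5.45 at 6 h, a difference of 2.34 ± 0.07 (adjusted p = 9.77e-12) or 5.05-fold. Hlf, another member of that family, had 5.23, 5.80 and 6.44 at 24 h against 4.05, 4.37 and 4.95 at 6 h (1.40 ± 0.19, adjusted p = 3.23e-05). For both genes every 24 h array was above every 6 h array. A second, dimmer probe set differed by 0.25 for Hlf and by 1.69 for Dbp. Adamts5 and Adamts1, secreted metalloproteases that cut aggrecan and versican, were higher by 1.80 ± 0.11 and 1.42 ± 0.06. Adamts5 measured 7.07, 7.41 and 7.73 at 24 h against 5.43, 5.67 and 5.78 at 6 h. Gas1, a membrane protein first found in growth-arrested fibroblasts, had 10.29, 10.51 and 10.66 at 24 h against 8.70, 8.93 and 9.19 at 6 h (1.56 ± 0.09, adjusted p = 1.06e-08). Dimmer probe sets of Gas1 differed by 1.68 and 0.09.

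Chemokines that attract leukocytes were also among the largest gains. Cxcl5, a neutrophil chemokine, measured 9.70, 9.99 and 10.11 at 24 h against 8.27, 8.32 and 8.47 at 6 h, and was higher by 1.61 ± 0.07 (adjusted p = 3.97e-10). Ccl7, a monocyte chemokine, was higher by 1.40 ± 0.19. Fabp4, a fatty acid binding protein, was higher by 1.57 ± 0.14 and Plin4, a lipid droplet coat protein, by 1.46 ± 0.08. Gpnmb, a glycoprotein of lysosomes and melanosomes, had 6.66, 6.97 and 7.11 at 24 h against 5.21, 5.29 and 5.59 at 6 h, and was higher by 1.61 ± 0.08. The other genes named among the 14 largest gains were Ampd3 (AMP deaminase, 1.49 ± 0.06), Akr1c14 (a hydroxysteroid dehydrogenase, 1.47 ± 0.10), Serpinb9b (a serine protease inhibitor, 1.46 ± 0.15) and Eno2 (an enolase, 1.40 ± 0.20).

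The largest falls exceeded the largest gains. Lce1f, a late cornified envelope protein of the outer epidermis, had log2 signals of 6.70, 6.82 and 7.09 at 24 h against 9.36, 9.48 and 9.89 at 6 h, a difference of -2.67 ± 0.09 (adjusted p = 6.78e-11). Errfi1, which binds and inhibits the EGF receptor, had 7.62, 7.79 and 7.92 at 24 h against 10.12, 10.23 and 10.27 at 6 h (-2.42 ± 0.06, adjusted p = 3.69e-12). The arrays of the 2 times were apart by many times their spread in both genes. Has2, which makes hyaluronan, had 3.70, 4.50 and 4.60 at 24 h against 6.79, 6.93 and 7.03 at 6 h (-2.56 ± 0.12). Tnc, the matrix glycoprotein tenascin C, had 5.03, 5.25 and 5.69 at 24 h against 7.62, 7.79 and 8.01 at 6 h (-2.52 ± 0.10). Egr1, a zinc finger factor induced by ERK signalling, had 6.22, 6.41 and 6.52 at 24 h against 8.32, 8.57 and 8.71 at 6 h (-2.15 ± 0.07, adjusted p = 7.03e-11). Its relative Egr2 was at a mean of 4.10 at 24 h, under the limit of 4.35 below which signals were treated as low, against 6.09 at 6 h, and was therefore at least 3.32-fold lower.

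Of the rest of the 14 largest falls, Sema7a, a membrane-anchored semaphorin, was lower at 24 h by a log2 difference of -2.12 ± 0.13, and Ggct, an enzyme of glutathione breakdown, by -2.11 ± 0.10. Prkg2, a cGMP-dependent protein kinase, measured 7.62, 7.83 and 7.93 at 24 h against 9.56, 9.63 and 10.04 at 6 h (-1.88 ± 0.08). Hbegf, a ligand of the EGF receptor, measured 8.15, 8.30 and 8.60 at 24 h against 9.81, 9.92 and 10.06 at 6 h (-1.58 ± 0.08, adjusted p = 2.57e-09). The remaining members were Plek (pleckstrin, -1.83 ± 0.11), Spsb1 (-1.69 ± 0.14), Acsbg1 (an acyl-CoA synthetase, -1.63 ± 0.08) and Ptpn22 (a tyrosine phosphatase, -1.55 ± 0.09). Dimmer probe sets differed by -0.52 and -1.34 for Plek and by -0.71, -0.15 and -0.63 for Spsb1. The arrays of the 2 times did not overlap in any of the 28 genes with the largest changes, as the rule that named them required, and 1945 genes (22.4%) were called without overlap.

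**Figure D1:**
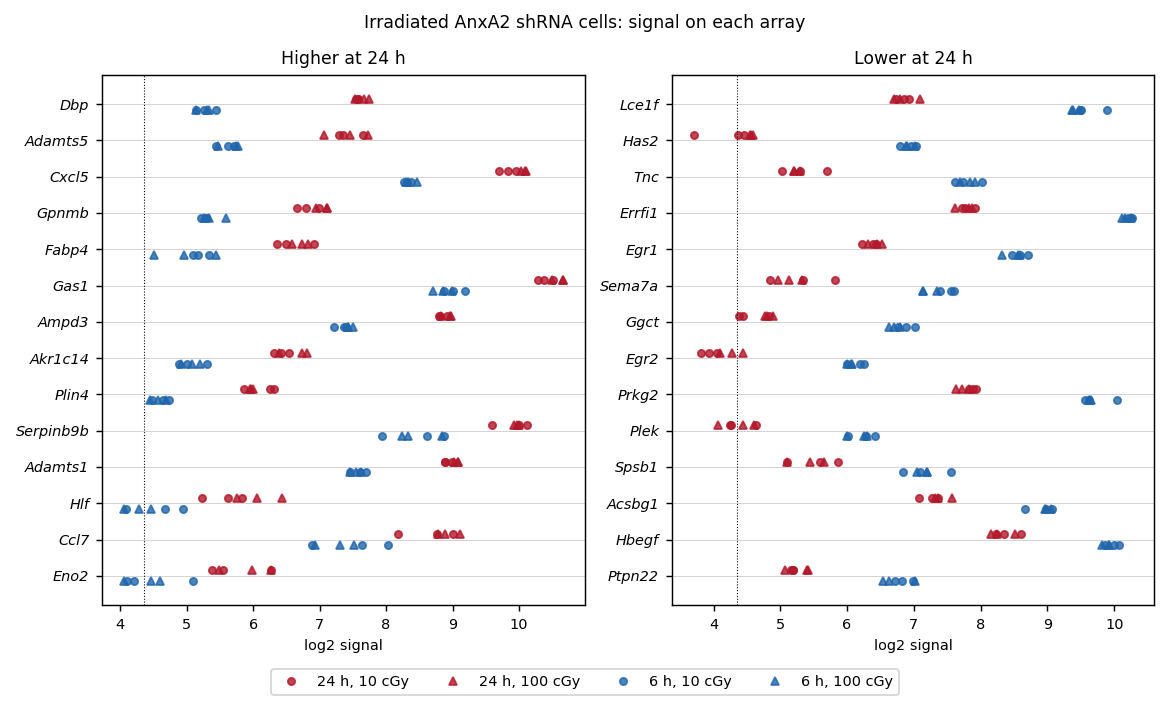
Log2 signal (x axis) on each of the 12 arrays of irradiated AnxA2 shRNA cells for the 14 genes with the largest gain (left) and the 14 with the largest fall (right); circles are 10 cGy, triangles 100 cGy, and the dotted line marks the low-signal limit of 4.35. The 24 h arrays (red) and the 6 h arrays (blue) do not overlap in any of these genes.

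The 2 h arrays showed that these genes reached their 24 h level along different courses. Some declined over all 3 times: Has2 averaged 9.37 ± 0.06 at 2 h, 6.93 ± 0.09 at 6 h and 4.37 ± 0.34 at 24 h (SD, n = 6 each), and Hbegf 11.53 ± 0.14, 9.93 ± 0.09 and 8.35 ± 0.18. Vegfa, the vascular growth factor, averaged 9.86 ± 0.11 at 2 h, 7.63 ± 0.13 at 6 h and 6.18 ± 0.23 at 24 h. Others had their highest mean at 6 h: Ggct averaged 6.10 ± 0.21 at 2 h, 6.80 ± 0.14 at 6 h and 4.68 ± 0.21 at 24 h, and Btc, betacellulin, a further EGF receptor ligand, 5.47 ± 0.23, 6.32 ± 0.15 and 4.79 ± 0.26. Some genes higher at 24 h had their lowest mean at 6 h. Dbp averaged 6.32 ± 0.11 at 2 h, 5.27 ± 0.12 at 6 h and 7.61 ± 0.08 at 24 h. Cxcl5 averaged 10.05 ± 0.21 at 2 h, 8.34 ± 0.07 at 6 h and 9.95 ± 0.16 at 24 h, so its 24 h and 2 h means were closer than their SDs. Gas1 instead increased over all 3 times, with 8.08 ± 0.16, 8.94 ± 0.17 and 10.50 ± 0.15. The steps involving 2 h were not tested.

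**Figure D2:**
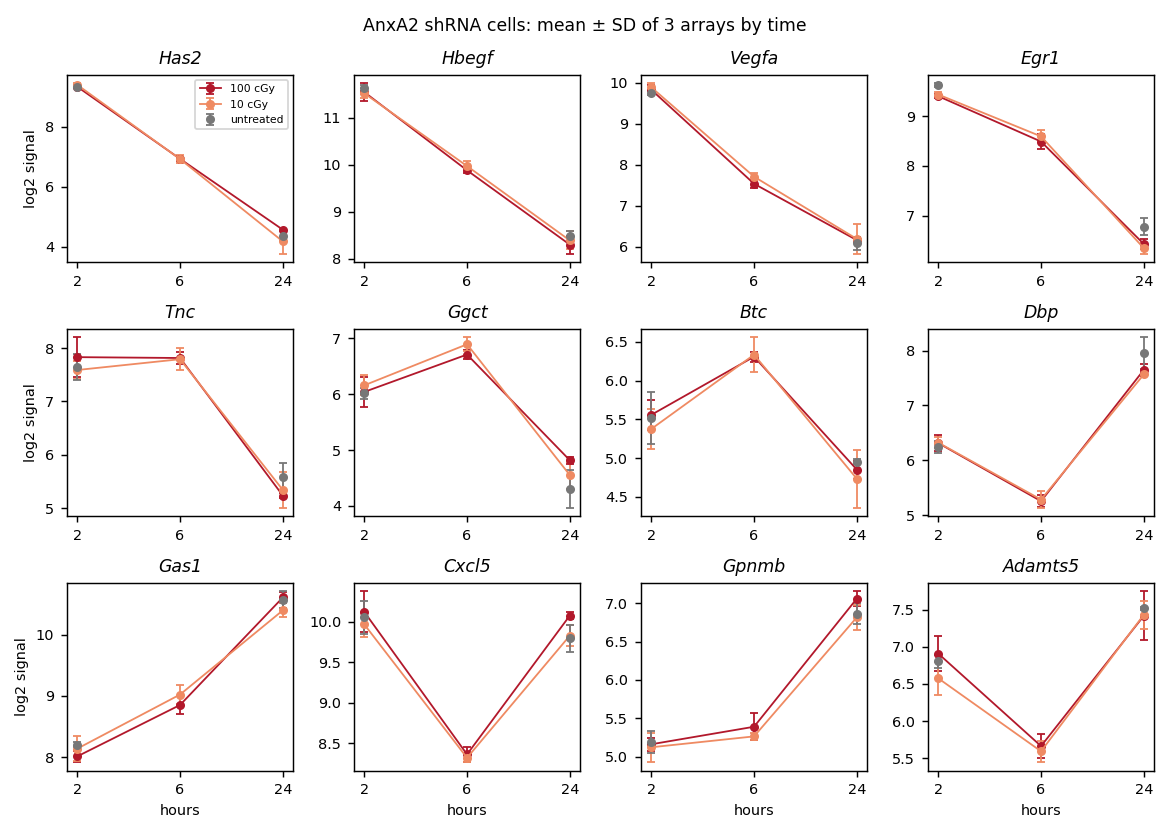
Log2 signal (y axis, mean ± SD of 3 arrays) at 2, 6 and 24 h (x axis, evenly spaced) in AnxA2 shRNA cells after 100 cGy, 10 cGy or no irradiation (grey, 2 and 24 h only) for 12 genes chosen after their values were seen. Has2, Hbegf, Vegfa and Egr1 decline over all times, Dbp, Cxcl5 and Adamts5 have their lowest mean at 6 h, and the untreated means at 2 and 24 h lie close to the irradiated ones.

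Lysosomal and autophagy genes were higher at 24 h as a group. Of 40 genes in the list, 33 were tested, and 19 were higher and 2 lower, with a median difference of 0.36 against -0.009 over all tested genes. Ctsa, which encodes cathepsin A, had log2 signals of 8.32, 8.35 and 8.55 at 24 h against 7.29, 7.36 and 7.46 at 6 h (1.03 ± 0.06, adjusted p = 1.31e-08). Grn, progranulin, had 10.23, 10.42 and 10.68 at 24 h against 9.27, 9.33 and 9.77 at 6 h (1.03 ± 0.10, adjusted p = 1.11e-06). The protease cathepsin B (Ctsb) was higher by 0.70 ± 0.06. The sialidase Neu1 was higher by 0.84 ± 0.07, while a second, dim probe set of Neu1 differed by -0.05. The 2 members that were lower were Ulk1, the kinase that starts autophagy, and Gabarapl1. Tfeb, a transcription factor of lysosomal genes, was not called, with a difference of 0.11.

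TFEB and its relatives are known to bind an E-box motif, TCACGTG, near the start of lysosomal genes. In the 250 bases before the annotated start, TCACGTG or its reverse complement CACGTGA was found in 8 of the 27 list members with a promoter sequence (29.6%), against 402 of 7035 tested genes (5.7%) and 968 of 27025 genes with a promoter (3.6%). Of the 17 members with a sequence that were higher at 24 h, 7 held it (41.2%). The 2 forms overlap where a T precedes and an A follows CACGTG, and such a place was counted once. A match is a run of letters and not evidence of binding. The windows of these 7 genes are shown because they are the higher members that hold the motif, and the other 10 do not; RefSeq sequence of build GRCm38.p6 is given 5′ to 3′ along the gene's strand, with 1 match per gene in capitals.
Ctsa (chr2:164833740-164833772, + strand): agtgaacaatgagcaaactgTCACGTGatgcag
Mcoln1 (chr8:3500427-3500473, + strand): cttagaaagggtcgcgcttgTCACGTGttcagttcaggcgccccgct
Ctsd (chr7:142388046-142388077, - strand): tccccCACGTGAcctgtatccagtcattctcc
Lgmn (chr12:102439116-102439162, - strand): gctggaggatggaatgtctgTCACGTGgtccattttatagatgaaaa
Glb1 (chr9:114401009-114401055, + strand): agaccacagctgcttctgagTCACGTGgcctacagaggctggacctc
Gaa (chr11:119267802-119267848, + strand): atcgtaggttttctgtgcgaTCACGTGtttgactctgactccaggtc
Lamp1 (chr8:13159079-13159125, + strand): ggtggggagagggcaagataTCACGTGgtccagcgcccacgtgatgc
In these genes the log2 difference between 24 h and 6 h was 1.03 for Ctsa, 0.89 for the lysosomal calcium channel gene Mcoln1, 0.70 for the protease gene Ctsd, 0.65 for Lgmn, 0.62 for the galactosidase gene Glb1, 0.51 for the glucosidase gene Gaa and 0.49 for the membrane protein gene Lamp1.

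Genes of cholesterol and fatty acid synthesis were likewise higher at 24 h. Of 36 listed genes 29 were tested, and 20 were higher and 0 lower by limma, with a median difference of 0.39. Without replicate 1 of 10 cGy at 6 h the counts were again 20 and 0. Insig2, which retains the sterol sensor complex in the endoplasmic reticulum, had log2 signals of 8.25, 8.40 and 8.55 at 24 h against 6.98, 7.25 and 7.49 at 6 h (1.15 ± 0.08, adjusted p = 8.99e-08). Idi1, an isomerase of the isoprenoid pathway, had 9.20, 9.39 and 9.49 at 24 h against 8.46, 8.57 and 8.61 at 6 h (0.83 ± 0.06). Sqle, the squalene epoxidase, was higher by 0.61 ± 0.06 and Stard4, a sterol carrier, by 0.64 ± 0.07. The members not called included the fatty acid synthase gene Fasn, at -0.13, and Srebf1 and Srebf2, which encode the sterol-regulated factors of these genes, at -0.05 and 0.19.

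Promoters of sterol synthesis genes often carry a CCAAT box, bound by NF-Y, which acts together with the SREBP factors. CCAAT or its reverse complement ATTGG was found in the 250 bases before the start of 18 of 22 list members with a promoter sequence (81.8%), against 40.7% of tested genes and 37.5% of all genes with a promoter. It was found in 11 of the 14 higher members with a sequence (78.6%), no larger a share than in the whole list. The 4 of these with the largest change are shown, with 1 match in capitals (RefSeq, GRCm38.p6, 5′ to 3′ along the gene's strand).
Insig2 (chr1:121332701-121332745, - strand): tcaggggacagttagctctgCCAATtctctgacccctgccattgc
Idi1 (chr13:8885541-8885585, + strand): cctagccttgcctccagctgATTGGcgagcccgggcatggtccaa
Msmo1 (chr8:64733714-64733758, - strand): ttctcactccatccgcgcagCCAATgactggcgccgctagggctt
Hmgcs1 (chr13:119690101-119690138, + strand): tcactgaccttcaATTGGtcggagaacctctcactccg
Msmo1, a sterol demethylating oxidase, was higher at 24 h by 0.79, and Hmgcs1, the HMG-CoA synthase, by 0.57. As with the E-box, a match is not evidence of binding.

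Immediate early factors moved mostly down. Of 31 tested members (34 listed), 17 were lower and 7 higher at 24 h, with a median difference of -0.34. Besides Egr1 and Egr2, Fosl1, an AP-1 subunit, had log2 signals of 8.83, 8.96 and 9.13 at 24 h against 9.98, 10.03 and 10.10 at 6 h (-1.07 ± 0.06, adjusted p = 1.34e-08), and Ier3, an early response gene, was lower by -0.98 ± 0.07. Not all members fell: Jund and Dusp1, named here after their values were seen, were higher by 1.11 ± 0.09 and 1.15 ± 0.08. Jund encodes another AP-1 subunit and Dusp1 a MAP kinase phosphatase. Among 26 tested genes of the EGF receptor, its ligands and other growth factors (33 listed), 9 were lower and 1, Tgfbr2, was higher at 24 h. The lower ones included the ligands Hbegf, Btc and Ereg. Btc had 4.51, 4.81 and 5.17 at 24 h against 6.09, 6.34 and 6.53 at 6 h (-1.53 ± 0.11), and Ereg, epiregulin, had 8.20, 8.29 and 8.43 at 24 h against 9.28, 9.45 and 9.53 at 6 h (-1.11 ± 0.06). The receptor gene Egfr was not called and differed by 0.01.

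Ribosome biogenesis genes and Myc targets were lower at 24 h by small amounts. Of 42 tested members (45 listed), 29 were lower and 0 higher by limma, with a median difference of -0.24. Tsr1, which acts in the maturation of the small ribosomal subunit, had log2 signals of 8.36, 8.46 and 8.51 at 24 h against 8.93, 8.99 and 9.08 at 6 h (-0.55 ± 0.06, adjusted p = 2.69e-06). Nhp2, a protein of small nucleolar particles, was lower by -0.53 ± 0.06, Nop14 by -0.50 ± 0.06 and Wdr43 by -0.41 ± 0.06. Myc itself was not called, at -0.10. Of 43 tested genes induced by ATF4 or the unfolded protein response (44 listed), 21 were lower and 6 higher at 24 h, with a median of -0.18. The lower ones included Ddit4, an inhibitor of mTORC1 signalling (-1.04 ± 0.08), Nupr1, a stress-induced chromatin protein (-0.81 ± 0.06), and the transporters Slc7a5 and Slc7a11 (-0.82 and -0.66). Wars, a tRNA synthetase gene, was lower by -0.46 ± 0.05, although the dimmest of 3 other probe sets differed by 0.07. Some chaperones of the endoplasmic reticulum were among the 6 higher members, such as Hsp90b1 at 0.49 and Pdia3 at 0.48.

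The cell cycle lists were split. Of 45 tested genes of DNA replication (50 listed), 13 were higher and 2 lower at 24 h, with a median of 0.14. Tk1, thymidine kinase, had log2 signals of 9.51, 9.56 and 9.65 at 24 h against 8.76, 9.0 and 9.10 at 6 h (0.59 ± 0.07, adjusted p = 7.32e-06), and the helicase subunit gene Mcm2 was higher by 0.50 ± 0.08. The clamp loader subunits Rfc4 and Rfc5 were higher by 0.56 ± 0.09 and 0.33 ± 0.06, while Pcna, the clamp itself, was not called at 0.01. Second, dimmer probe sets differed by 0.09 for Mcm2 and by 0.22 for Rfc4. Of 42 tested mitotic genes (46 listed), 12 were higher and 7 lower, with a median of 0.03. Kif23, a motor protein of cytokinesis, was lower by -0.59 ± 0.07 and Ccnb2, a mitotic cyclin, higher by 0.30 ± 0.06. Kif2c was lower by -0.44 ± 0.07, but 1 of its 2 other probe sets differed by 0.19. Ect2, a regulator of cytokinesis, was higher by 0.40 ± 0.08, with overlap between the times. Of 28 tested genes of quiescence and cyclin-dependent kinase inhibition (32 listed), 13 were higher and 3 lower. Rbl2, the pocket protein p130, had 5.92, 6.15 and 6.49 at 24 h against 4.39, 5.14 and 5.41 at 6 h (1.14 ± 0.14). Cdkn2d, an inhibitor of Cdk4 and Cdk6, was higher by 0.44 ± 0.06. Ccnd3, which encodes cyclin D3 and not an inhibitor, was higher by 0.58 ± 0.07.

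Targets of p53 did not move one way. Of 33 tested targets (40 listed), 8 were higher and 10 lower at 24 h, and the median difference was near 0. Cdkn1a had log2 signals of 9.81, 10.05 and 10.24 at 24 h against 10.50, 10.69 and 10.75 at 6 h (-0.62 ± 0.07, adjusted p = 1.13e-05). Mdm2 had 9.22, 9.38 and 9.47 at 24 h against 9.59, 9.90 and 10.15 at 6 h (-0.52 ± 0.07, adjusted p = 2.48e-05). Both fell without overlap between the times. Ccng1, cyclin G1, had 10.89, 11.04 and 11.28 at 24 h against 10.82, 11.10 and 11.22 at 6 h and was not called (0.02 ± 0.07, adjusted p = 0.829). Its 2 dimmer probe sets differed by 0.42 and 0.32, so no statement on its direction is made. Sertad1, a regulator of E2F and Cdk4 activity, was lower by -0.81 ± 0.07. Plk2, a polo-like kinase, was higher by 1.06 ± 0.09, and the death receptor gene Fas by 1.12 ± 0.10. In untreated shRNA cells Cdkn1a averaged 9.98 ± 0.03 at 24 h and 10.64 ± 0.08 at 2 h (SD, n = 3 each).

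Inflammatory genes included some of the larger changes in both directions. Of 34 tested NF-kB targets and chemokines (40 listed), 10 were higher and 10 lower at 24 h. The higher ones held the chemokines Cxcl5, Ccl7, Ccl2, Cxcl1, Cxcl12 and Cxcl10, and the lower ones the chemokines Ccl9 (-0.42) and Cx3cl1 (-0.41). Ccl2, a monocyte chemokine, had log2 signals of 9.67, 10.24 and 10.46 at 24 h against 8.33, 8.80 and 9.40 at 6 h (1.36 ± 0.16), and Cxcl1, a neutrophil chemokine, was higher by 1.21 ± 0.12. The lower ones also included the cytokine genes Il11 and Lif, at -0.82 and -0.55. Of 23 tested interferon response genes (44 listed), 13 were higher and 1, H2-K1, was lower, with a median of 0.28. Ifit2, an RNA-binding antiviral protein, had 7.79, 7.83 and 7.98 at 24 h against 6.87, 6.94 and 7.08 at 6 h (0.90 ± 0.06, adjusted p = 4.97e-08). Its relative Ifit1 was under the low-signal limit at 6 h, with a mean of 3.96 against 4.99 at 24 h, and was at least 1.55-fold higher. Trim30a and Lgals3bp were higher by 0.79 ± 0.10 and 0.58 ± 0.08. Of 16 tested acute-phase and complement genes (31 listed), 5 were higher and 4 lower. Ptx3, a pentraxin, was higher by 1.22 ± 0.12 and the receptor subunit gene Il6st by 0.67 ± 0.07, while the inhibitor of matrix metalloproteases Timp1 was lower by -1.27 ± 0.08 and the AP-1 subunit gene Junb by -0.82 ± 0.08.

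Matrix and cytoskeletal genes fell more often than they rose. Of 41 tested collagen and matrix genes (48 listed), 12 were lower and 7 higher at 24 h. The falls were led by Has2 and Tnc, and the collagenous components Col1a1 and Col1a2 were not called, at -0.04 and 0.01. Mmp10, stromelysin-2, had log2 signals of 4.68, 4.73 and 4.96 at 24 h against 5.48, 5.63 and 6.03 at 6 h (-0.90 ± 0.08). The collagenase gene Mmp13 was called as well but lay under the low-signal limit at both times, with means of 2.39 and 3.84 at 24 and 6 h, and no fold is given. Of 39 tested actin and focal adhesion genes (42 listed), 14 were lower and 3 higher, with a median of -0.16. Acta2, smooth muscle actin, had 9.63, 9.67 and 9.85 at 24 h against 10.56, 10.58 and 10.87 at 6 h (-0.93 ± 0.06, adjusted p = 6.99e-08), and Actg2, another smooth muscle actin, was lower by -1.06 ± 0.10. The integrin subunit genes Itgav and Itga6 were lower by -0.63 ± 0.06 and -0.45 ± 0.06. Of 18 tested CCN genes and YAP targets (25 listed), 8 were higher and 6 lower. Ankrd1, a cardiac ankyrin repeat protein, was higher by 1.32 ± 0.17, the tissue factor gene F3 by 0.75 ± 0.08, and Ccn3 was at least 1.97-fold higher, being under the limit at 6 h. Ccn2, connective tissue growth factor, was lower by -0.58 ± 0.09 (adjusted p = 0.000115), but not past the threshold when all 47 arrays were fitted together (adjusted p = 0.285).

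**Figure D3:**
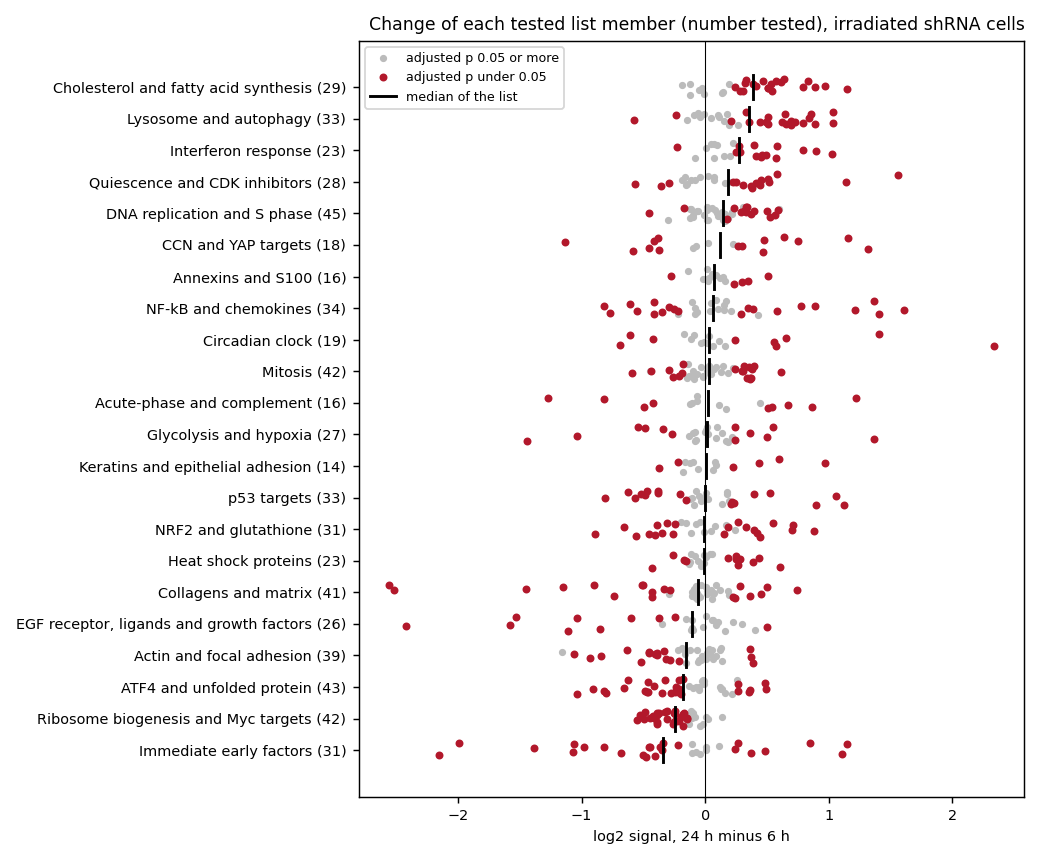
Log2 difference in signal, 24 h minus 6 h (x axis), of every tested member of 22 gene lists (rows, number tested in brackets) in irradiated AnxA2 shRNA cells; red points passed an adjusted p of 0.05 and black bars are list medians. Cholesterol synthesis (median 0.39) and lysosome (0.36) lie furthest to the right, and ribosome biogenesis (-0.24) and immediate early factors (-0.34) furthest to the left.

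The other lists held changes in both directions. Of 19 tested clock genes (22 listed), 6 were higher and 3 lower at 24 h. Besides Dbp and Hlf, the nuclear receptor gene Rora was higher by 0.65 ± 0.09, and Arntl, the partner of CLOCK, had log2 signals of 6.74, 6.88 and 6.96 at 24 h against 7.39, 7.59 and 7.69 at 6 h (-0.69 ± 0.07, adjusted p = 2.28e-06). Per1 and Per2 were not called, at 0.11 and 0.03. Of 27 tested glycolysis and hypoxia genes (37 listed), 6 were higher and 6 lower. Adm, adrenomedullin, was higher by 1.36 ± 0.08 and Bnip3, a mitophagy receptor, by 0.55 ± 0.06, while Vegfa was lower by -1.45 ± 0.10. Of 31 tested NRF2 and glutathione genes (40 listed), 11 were higher and 10 lower. The glutathione transferases Mgst1 and Gstm1 were higher by 0.88 ± 0.09 and 0.70 ± 0.08, while Ugdh and Txnrd1, an oxidoreductase of thioredoxin, were lower by -0.89 ± 0.06 and -0.56 ± 0.06. Of 23 tested heat shock genes (28 listed), 8 were higher and 4 lower. Hspa4l and Hsph1 were higher by 0.61 ± 0.07 and 0.43 ± 0.06, and the co-chaperone gene Chordc1 was lower by -0.26 ± 0.06. Hspa4 was lower on its brightest probe set (-0.43 ± 0.08) but differed by 0.40 and 0.73 on 2 others, so no direction is given.

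Of 16 tested annexin and S100 genes other than Anxa2 (21 listed), 4 were higher and 1 lower at 24 h. Anxa4 had log2 signals of 9.82, 9.85 and 10.03 at 24 h against 9.25, 9.40 and 9.49 at 6 h (0.51 ± 0.06), and Anxa3 was higher by 0.35 ± 0.05. Anxa9 was higher by 0.30 ± 0.10 with overlap, a call lost without replicate 3 of 100 cGy at 24 h, replicate 3 of 10 cGy at 24 h, or replicate 1 or 3 of 100 cGy at 6 h (adjusted p between 0.0516 and 0.0573), and Anxa8 lower by -0.28 ± 0.06, with a second probe set at 0.07. At 10 cGy alone Anxa9 differed by 0.13 (adjusted p = 0.623). The call of Anxa8 was lost at 100 cGy alone (adjusted p = 0.0861) and with the mean of its probe sets (adjusted p = 0.331). S100a10, the partner of annexin A2, was not called, at 0.02. Of 14 tested keratin and epithelial adhesion genes (35 listed), 4 were higher and 2 lower. Sprr1a, a cornified envelope precursor, was higher by 0.97 ± 0.10, Krt14, a basal keratin, by 0.59 ± 0.06 and the junction protein gene Tjp1 by 0.22 ± 0.05. Krt10, a keratin of differentiating epidermis, was lower by -0.37 ± 0.08. The calls of Krt10 and Tjp1 were lost at 10 cGy alone (adjusted p = 0.0773 and 0.179).

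Some markers of the epidermal origin of JB6 had low signals. Of 8 epithelial markers 5, including Cdh1, Epcam and Krt18, were under the low-signal limit at both times, whereas of 13 mesenchymal markers only Thy1 was. Krt14 (above), the weak Krt8 (-0.22 ± 0.07) and, among mesenchymal markers, Snai2 (0.33 ± 0.07) and Col3a1 (0.24 ± 0.08) were the called members. The log2 of the summed epithelial signal lay between 7.62 and 7.78 at 24 h and between 7.36 and 7.49 at 6 h, and of the mesenchymal signal between 14.67 and 14.97 at 24 h and between 14.71 and 14.86 at 6 h. Of 15 leukocyte markers measured 9 were under the limit, Ptprc, Cd68 and Itgam included, and the summed signal lay between 8.86 and 9.12 at 24 h and between 9.20 and 9.33 at 6 h. Cd14 was the called member there (-0.56 ± 0.07). Of 8 endothelial markers 7 were under the limit and 0 were called, with summed signals of 6.52 to 6.86 at 24 h and 6.55 to 6.77 at 6 h. Of 13 muscle markers 9 were under it, Myod1 and Myog included, with summed signals of 9.26 to 9.39 at 24 h and 10.03 to 10.43 at 6 h, and Tnnt2 (-1.23 ± 0.09) and Acta1 (-0.21 ± 0.07) were called. The calls of Acta1 and Krt8 were lost at each dose alone, and that of Acta1 also without the filter on low signal (adjusted p = 0.052). Those of Col3a1 and Snai2 were lost at 10 cGy alone (adjusted p = 0.751 and 0.179). Leaving out single 100 cGy arrays also cost Col3a1 its call (adjusted p between 0.0508 and 0.0539). These were replicate 2 at 6 h and replicates 1 and 3 at 24 h. Acta1 also lost its call without any one of 8 arrays (adjusted p between 0.0556 and 0.0877): 100 cGy at 24 h replicates 1 and 3, 100 cGy at 6 h replicates 1, 2 and 3, 10 cGy at 24 h replicates 1 and 3, or 10 cGy at 6 h replicate 3. Krt8 lost it without any one of 5 (adjusted p between 0.0519 and 0.0695): replicate 3 of 100 cGy at 24 h, 10 cGy at 24 h or 10 cGy at 6 h, or replicates 1 or 2 of 100 cGy at 6 h. The part of other cells in the results was not tested, and fewer cells of a type and less RNA per cell cannot be told apart in such bulk samples.

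Few genes were called for a different change from 6 to 24 h at the 2 doses. All 1777 genes called higher differed in the same direction at 100 and at 10 cGy, as did 1662 of the 1663 called lower, but these calls were made on both doses together. Across all tested genes the differences at 100 cGy and at 10 cGy, which rest on separate arrays, correlated at r = 0.879, a description in which genes are not independent. On the 100 cGy arrays alone 1430 genes were higher and 1394 lower (16.5% and 16.1%), and on the 10 cGy arrays alone 632 and 492 (7.29% and 5.67%). The 10 cGy arrays include the one with the high Gapdh difference. A test of the difference between doses called 6 genes with a larger change at 100 cGy (0.0692%) and 0 with a smaller one by limma, with 242 at an unadjusted p under 0.05.

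Saa3, an acute-phase serum amyloid protein, had log2 signals of 7.94, 7.92 and 7.74 at 24 h against 6.46, 6.59 and 6.71 at 6 h after 100 cGy. After 10 cGy it had 6.19, 6.33 and 6.21 at 24 h against 6.68, 6.49 and 6.77 at 6 h. The change was thus upward at 100 cGy (1.28) and downward at 10 cGy (-0.40), and the difference between them was 1.68 ± 0.20 (adjusted p = 3e-06). C1s1, a complement protease, had 9.0, 8.88 and 9.10 at 24 h against 8.09, 8.05 and 7.86 at 6 h after 100 cGy, and 8.04, 7.82 and 8.04 against 7.80, 7.95 and 8.09 after 10 cGy, a difference between doses of 0.97 ± 0.12. Lbp, which binds lipopolysaccharide, had 7.92, 7.71 and 7.93 at 24 h against 7.04, 7.05 and 6.95 at 6 h after 100 cGy, and 7.16, 7.15 and 7.26 against 7.29, 7.15 and 7.07 after 10 cGy (0.83 ± 0.13). In these 3 genes the 3 arrays of 100 cGy at 24 h were above all other 9 arrays. The same genes were the 3 called in irradiated against untreated shRNA cells at 24 h, of 8675 (0.0346%), at 1.07 for Saa3, 0.46 for C1s1 and 0.49 for Lbp, while 0 were lower by limma and 588 had an unadjusted p under 0.05. That contrast averages the 2 doses and shares its 24 h arrays with the one between doses. Neither dose alone was tested against untreated cells here.

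The other 3 were Prelp and Dpt, small matrix proteins (1.14 ± 0.22, adjusted p = 0.0178, and 0.99 ± 0.19, adjusted p = 0.0176), and Plpp3, a lipid phosphatase (0.55 ± 0.11, adjusted p = 0.0344). A second probe set of Plpp3 changed by -0.01 from 6 to 24 h over both doses, against 0.11 on the first. Its difference between doses was not tested. The calls of these 3 genes were less firm. When only the arrays of the compared groups were fitted 1 gene, Saa3, remained, and without any one of 4 arrays (replicate 2 of 100 cGy at 6 h, replicate 3 of 100 cGy at 24 h, replicate 2 of 10 cGy at 6 h or replicate 1 of 10 cGy at 24 h) 3 remained, whereas 14 were called when 3 vector arrays at 2 h that stood apart were left out of the shared estimate of spread.

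**Figure D4:**
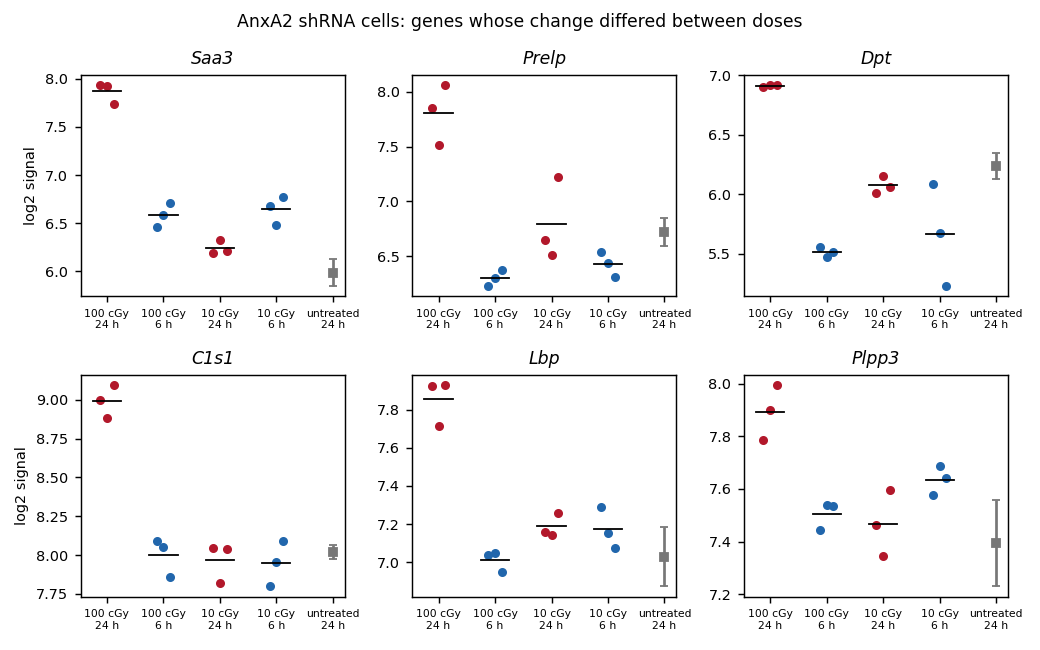
Log2 signal (y axis) on each array of AnxA2 shRNA cells for the 6 genes whose change differed between doses, at 24 h (red) and 6 h (blue) after 100 and 10 cGy; bars are means of 3 arrays and the grey square is the mean ± SD of 3 untreated arrays at 24 h. The 3 arrays of 100 cGy at 24 h lie above the other 9 irradiated arrays in each gene.

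The change from 6 to 24 h was compared with that in irradiated vector cells, on separate arrays (24 h: 5, 6 h: 6). In vector cells 1944 genes were higher and 1435 lower at 24 h (22.4% and 16.5%). Of these, 1193 genes were higher in both lines, 67.1% of the higher genes of shRNA cells and 61.4% of those of vector cells, and 925 were lower in both, 55.6% and 64.5%. The lists behaved alike in part: cholesterol synthesis had 20 higher and 0 lower members in shRNA cells and 22 and 1 in vector cells, lysosome 19 and 2 in each, and ribosome biogenesis 0 and 29 in shRNA cells and 1 and 21 in vector cells. The test of the difference itself called 880 genes, 342 with a more positive change in shRNA cells (3.94%) and 538 with a more negative one (6.20%). In 70 of these the change was called in opposite directions in the 2 lines, in 244 it was called in the same direction, in 214 only the shRNA change and in 340 only the vector change was called, and in 12 neither was. The shRNA calls came from the fit of 12 arrays and the vector calls from that of 47 arrays. These counts and overlaps therefore also depend on the fit. With all 47 arrays 1792 genes were higher and 1610 lower at 24 h in irradiated shRNA cells.

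The genes with the most negative difference included immune genes that rose in vector cells. Rsad2, the antiviral protein viperin, averaged 4.35 ± 0.30 at 24 h and 4.43 ± 0.23 at 6 h in shRNA cells, against 7.79 ± 0.26 and 4.74 ± 0.24 in vector cells, a difference in change of -3.09 ± 0.23 (adjusted p = 5.64e-13). Lcn2, lipocalin 2, averaged 4.80 ± 0.18 and 4.87 ± 0.14 in shRNA cells, against 7.10 ± 0.18 and 4.97 ± 0.08 in vector cells (-2.21 ± 0.20). Saa3 showed the same order, with -1.98 ± 0.14. Of 16 tested acute-phase and complement genes, 13 were higher at 24 h in vector cells and 5 in shRNA cells, and the difference was called negative in 11 and positive in 1, Timp1 (0.58). Of 34 NF-kB targets and chemokines it was called negative in 13 and positive in 1, and of 23 interferon response genes negative in 8 and positive in 0. Cxcl1, for example, was higher at 24 h by 1.21 in shRNA cells and by 2.69 in vector cells, a difference of -1.48 ± 0.20 (adjusted p = 1.71e-06).

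Egr1 fell in shRNA cells but not detectably in vector cells. It averaged 6.39 ± 0.11 at 24 h and 8.54 ± 0.13 at 6 h in shRNA cells (SD, n = 6 each), against 8.46 ± 0.13 (n = 5) and 8.28 ± 0.17 (n = 6) in vector cells, where the change was 0.16 (adjusted p = 0.187). The difference was -2.32 ± 0.13 (adjusted p = 9.27e-16). Errfi1 averaged 7.79 ± 0.11 and 10.21 ± 0.06 in shRNA cells, against 9.64 ± 0.09 and 10.15 ± 0.09 in vector cells (-1.90 ± 0.34, adjusted p = 0.000114). In both genes the 6 h levels of the lines were near each other and the 24 h level was lower in shRNA cells. Mmp13 (-2.21 ± 0.13) and Islr (-1.93 ± 0.23) were under the low-signal limit in shRNA cells at both times. For Mmp13 the fitted change was -1.45 in shRNA cells, between signals under the limit, and 0.76 in vector cells, and for Islr it was 0.12 and 2.06.

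The most positive differences belonged to genes that fell further in vector cells, or that fell there and rose in shRNA cells. Tnnt2, cardiac troponin T, averaged 8.55 ± 0.12 at 24 h and 9.78 ± 0.18 at 6 h in shRNA cells, against 3.56 ± 0.20 and 7.62 ± 0.12 in vector cells (2.81 ± 0.12, adjusted p = 1.23e-19). Its vector signal at 24 h was under the low-signal limit, so the fitted difference is not an exact size, and the same holds for Slc6a12 (4.24). Klf4, a Krüppel-like factor of epidermal differentiation, averaged 10.75 ± 0.20 and 9.90 ± 0.08 in shRNA cells, against 7.65 ± 0.19 and 8.28 ± 0.08 in vector cells (1.50 ± 0.23), and thus moved in opposite directions. Timp3, a metalloprotease inhibitor, was higher at 24 h by 0.50 ± 0.08 in shRNA cells and lower by -1.24 ± 0.23 in vector cells (1.73 ± 0.31). Ctla2a, a cathepsin inhibitor, was lower in both, by -0.68 and -2.39 (1.71 ± 0.13). Slc6a12, a betaine transporter with overlapping arrays in shRNA cells, differed by 1.65 ± 0.22, and Smoc2, under the low-signal limit in shRNA cells, by 1.93 ± 0.13. Smoc2 likewise passed the filter through signals on other arrays, and its difference is not an exact size. Among the 28 genes with the largest changes, Dbp also differed between lines, with a larger gain in shRNA cells (1.01 ± 0.30, adjusted p = 0.0265), and Hlf with a smaller one (-1.48 ± 0.22, adjusted p = 9.68e-06).

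**Figure D5:**
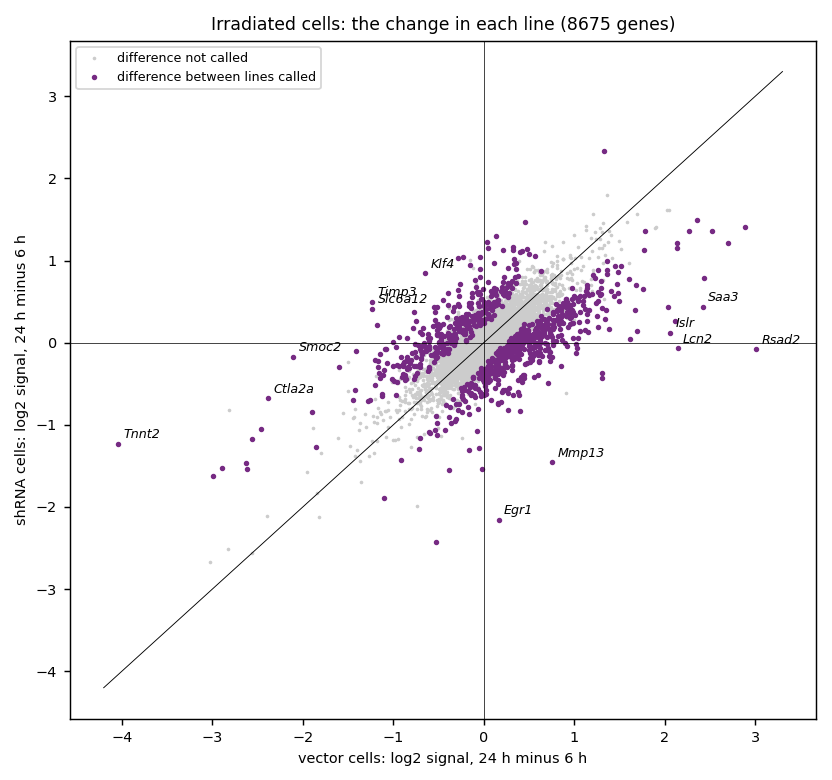
Log2 difference, 24 h minus 6 h, in irradiated AnxA2 shRNA cells (y axis) against that in irradiated vector cells (x axis) for 8675 genes; purple points are the 880 genes whose change differed between lines, and the line marks equal change. Egr1 and Mmp13 lie below 0 in shRNA cells and above 0 in vector cells, Klf4, Timp3 and Slc6a12 the other way round.

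Untreated shRNA cells were measured at 24 and 2 h, another interval, on arrays outside the comparison. There 874 genes were higher and 793 lower at 24 h (10.1% and 9.14%). Of these, 622 were also higher in irradiated cells at 24 h against 6 h, 71.2% of the untreated and 35.0% of the irradiated calls, and 585 were also lower, 73.8% and 35.2%. Lysosomal genes were higher in untreated cells as well (20 of 33, and 0 lower), and so were 15 of 29 cholesterol synthesis genes, with 0 lower. Lce1f averaged 7.08 at 24 h and 9.86 at 2 h in untreated cells, Has2 4.36 and 9.34, and Gas1 10.57 and 8.21. Genes with their lowest irradiated mean at 6 h differed among themselves over this longer interval: Dbp was higher at 24 h than at 2 h (1.71, adjusted p = 4.38e-05), Cxcl5 did not pass (-0.26, adjusted p = 0.474), and Cxcl1 and Ptx3 were lower, by -1.33 and -0.98. With 21 higher and 19 lower genes called in the opposite direction in untreated cells, such reversals made up a small share of the calls.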

How the data were processed

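RNA of mouse JB6 cells was measured on Affymetrix arrays with 22690 probe sets. RMA, in a version not given in the sources used here, produced the signals per the submitters' processing notes. The authors deposited log2 values (1.84 to 14.03), which entered the tests without further normalization. Groups follow the labels' line, dose and time. Of the probe sets, 64 are controls, 20380 have 1 gene symbol, 691 have several and 1555 have no symbol, and only those with 1 symbol were kept. Symbols were checked through the Entrez number in the RefSeq table of GRCm38.p6 (20351 matched). Each of 12393 genes was represented by its brightest probe set on average over 47 arrays, and the 30% with the lowest mean (under 4.35) were dropped, leaving 8675.

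The change was fitted with limma 3.58.1 (R 4.3.3) to 12 arrays with time and dose as terms (9 residual and 5.5 prior degrees of freedom). All other contrasts came from 1 limma fit of 16 group means to 47 arrays. P values are two-sided and adjusted by Benjamini-Hochberg over all tested genes, with a threshold of 0.05; ± after a difference is its standard error. Means ± SD are over arrays, and the number of arrays limits the precision. A fold is given as a lower bound where 1 time was under 4.35. The code was tested on simulated data. No 2 arrays were identical. The numbered replicates were checked for pairing: of 18 same-numbered pairs 11 correlated over 0.1 (range -0.131 to 0.559). Their median was 0.139, against -0.087 for the other pairs, so a shared replicate effect is possible. No pairing was taken in the main fit, and the replicate number as a block was an alternative. The members, gene lists, motifs and rules were chosen with earlier results of these data known. Named were the 14 largest gains and falls called without overlap and not low at both times, up to 4 called members per list with the smallest p, Anxa2, Cdkn1a, Mdm2 and Ccng1, and the 6 largest dose and line differences per direction. Other members are named as examples chosen after their values were seen. Named genes had 75 further probe sets, of which 68 had the same sign. Alternatives changed the arrays in the fit, the dose term, the filter, the probe set rule, the centring, the variance model and the replicates.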

Additional observations from a re-analysis of the deposited data

Results flagged for a closer look

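For 6 genes the change from 6 to 24 h in shRNA cells differed between doses by the test of that difference, always toward a more positive change at 100 than at 10 cGy. The log2 differences were 1.68 for Saa3, 1.14 for Prelp, 0.99 for Dpt, 0.97 for C1s1, 0.83 for Lbp and 0.55 for Plpp3. For 12 genes named among the 880 called, the change differed between shRNA and vector cells. It was more positive in shRNA cells by 2.81 for Tnnt2, 1.93 for Smoc2, 1.73 for Timp3, 1.71 for Ctla2a, 1.65 for Slc6a12 and 1.50 for Klf4. It was more negative in shRNA cells, at -3.09 for Rsad2, -2.32 for Egr1, -2.21 for Mmp13, -2.21 for Lcn2, -1.98 for Saa3 and -1.93 for Islr. Mmp13, Islr and Smoc2 were under the low-signal limit in shRNA cells and passed the filter through signals on other arrays. Tnnt2 and Slc6a12 were under the limit in vector cells at 24 h. The sizes given for these genes are therefore not exact. Saa3 is in both groups: its change was 1.28 at 100 cGy and -0.40 at 10 cGy in shRNA cells, and 2.42 in vector cells over both doses.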

How the results depend on the processing

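The counts of genes changed between 24 and 6 h (1777 higher, 1663 lower) stayed within 1.5 times under all alternatives but the fit of the 10 cGy arrays alone (632 and 492). They lay between 1591 and 1936 higher and between 1444 and 1720 lower when single arrays were left out. Centring each array on its median gave 1578 higher and 1888 lower. The replicate number as a block gave 1895 and 1783, with 8 genes for the dose difference and 963 for the line difference. It changed no call of a named gene. The dose difference (6 genes) gave 1 with only the compared groups, 10 with centred arrays, 14 without the 3 vector arrays at 2 h that stood apart (an alternative chosen after seeing the data), and 3 to 8 with single arrays left out. The line difference (880) gave 1178 with only the compared groups, 1213 without those 3 arrays and 705 to 935 with single arrays left out. The change of Saa3, 0.44 and not called, was -0.40 on 10 cGy arrays alone (adjusted p = 0.0469), and that of Hspa4, -0.43, was 0.24 with the mean of its probe sets (adjusted p = 0.00282), as its probe sets differ in sign. On 10 cGy arrays alone 19 of 128 named genes were no longer called, and on 100 cGy arrays alone 4. Timp3 missed the threshold with all 47 arrays (adjusted p = 0.0619). The causes were not tested. Changes of genes with signals near or under 4.35 may be understated, which was not tested.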
